A study of Rattus norvegicus with 12 samples.

Results

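The 10 genes described here carry calcium and magnesium across the distal tubule of the kidney or control that transport: Calb1, S100g, Trpv5, Trpm6, Slc8a1, Slc12a3, Pvalb, Kl, Vdr and Cnnm2. They were taken by the gene name in the scanner files, with every probe of each name, which gave 14 of the 30367 probes and 10 of the 26456 gene names on the array. 13 of these 14 probes were bright enough to be tested, among 21057 probes tested in all. Pvalb had the probe that was not tested.

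RNA was measured in whole left kidneys of female rats of the inbred strain F344, aged 10 weeks. The groups were rats 3 days after unilateral ischemia reperfusion injury (IRI), in which the blood flow of 1 kidney is stopped and let back, rats 7 days after IRI, and rats killed 7 days after a sham operation. Each group had 4 samples with 1 single-colour Agilent array each, and no source used here says that they came from separate rats. No genetic change or drug is named for any group. No sham rats were killed at day 3, so the difference between IRI day 3 and sham also holds a difference in time since the operation.

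In the late distal convoluted tubule and the connecting tubule, calcium enters through the channel TRPV5, is carried by the calbindins and leaves at the blood side through the exchanger NCX1 (Slc8a1) and a calcium pump. The early distal convoluted tubule takes up sodium chloride through the thiazide-sensitive cotransporter NCC (Slc12a3) and magnesium through the channel TRPM6. Vitamin D, acting through its receptor VDR, is known to raise transcription of the calcium transport genes. Klotho (Kl) is the partner through which FGF receptors bind the phosphate hormone FGF23, and it is made mainly in the distal tubule.

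Each probe is an oligo of 60 bases, placed on the rat build rn4 by the files. The probes that the results turn on are shown first, since Slc8a1, Slc12a3 and Trpv5 are each read by more than 1 probe, at different places of the transcript. "Upstream", "middle" and "downstream" name the order along the transcript, taken from the coordinates and the strand. Calb1 has 1 probe, chr5:30475783-30475991 on the plus strand, whose 60 bases lie over 209 bases of genome and so cross an intron. For Slc8a1 the upstream probe lies at chr6:4690405-4690464, the middle one at chr6:4465106-4469831, where its bases are spread over 4726 bases, and the downstream one at chr6:4421341-4421400, all on the minus strand. The last 3 letters in capitals of the Trpv5 upstream probe (chr4:69363553-69363612, minus strand) and of the Slc12a3 upstream probe (chr19:11071790-11071849, minus strand) can be read as a stop codon. Of the Slc12a3 downstream probe (chr19:11070329-11070388), the Trpv5 downstream probe (chr4:69361523-69361582) and the S100g probe (chrX:52449257-52449316, plus strand) the first 30 bases are given. Capitals in the Slc12a3 downstream probe mark the usual polyadenylation signal, AATAAA.
Calb1: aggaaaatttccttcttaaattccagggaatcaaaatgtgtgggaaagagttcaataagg
S100g: cgacaccacctactgattgaatcctatcca
Trpv5 upstream: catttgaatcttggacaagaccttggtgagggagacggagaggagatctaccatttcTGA
Trpv5 downstream: cttgttatctccctaaagataaacctactc
Slc8a1 upstream: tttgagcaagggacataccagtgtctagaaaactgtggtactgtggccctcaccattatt
Slc8a1 middle: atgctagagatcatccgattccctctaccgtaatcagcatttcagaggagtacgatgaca
Slc8a1 downstream: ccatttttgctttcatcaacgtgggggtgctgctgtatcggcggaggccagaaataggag
Slc12a3 upstream: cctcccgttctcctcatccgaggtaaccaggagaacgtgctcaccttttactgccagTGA
Slc12a3 downstream: gccataagatgaAATAAAcccttttctccc

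The other probes lie at chr1:222502132-222502191 for Trpm6 and chr1:252195329-252195388 for Cnnm2, both on the plus strand, and at chr12:3732717-3732776 for Kl, chr7:136567655-136567714 for Vdr and chr7:116115036-116115095 for Pvalb, all on the minus strand. No pair of the 14 probes shared a run of more than 9 bases. Whether each lies in a coding exon or in an untranslated region was not looked up, since no annotation of rn4 was used here.

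All levels below are log2 values of the processed signal with the 75th percentile of the array taken off, so 0 is the brightness of that percentile. Levels of different probes cannot be compared, and only differences between groups can. The unscaled percentile was 714 ± 34.5 intensity units at IRI day 3 and 502 ± 60.9 at IRI day 7, against 328 ± 72.6 in sham (SD, n = 4 each), which is 2.17 times and 1.53 times sham. Between 65.0% and 80.6% of spots stood well above background on an array, and none of the members' spots was saturated. Pearson correlations across tested probes between arrays of 1 group ran from 0.940 to 0.984. Each of the 3 slides carried arrays of all 3 groups, and the slides were scanned in 2 batches. The number of arrays limits the precision, and in whole kidney RNA fewer cells of a type and less RNA per cell cannot be told apart.

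Most of the members were lower at IRI day 3 than in sham, and most had come back by IRI day 7. At IRI day 3, 11 of the 13 tested probes were lower, none was higher and 2, both of Trpv5, did not pass an adjusted p of 0.05 in the limma fit. Over all tested probes 56.5% passed, 32.0% lower and 24.5% higher. The median log2 fold change was -2.21 over the members and -0.11 over all probes. 8 of the 13 were lower by at least 4-fold, against 4.07% of all probes. In the same 11 probes every IRI day 3 array lay below every sham array, which was so in 28.5% of all probes.

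The picture was mixed at IRI day 7. Of the 13 probes 1 was lower than in sham (S100g), 3 were higher (Calb1 and the upstream probes of Trpv5 and Slc8a1) and 9 did not pass, against 18.4% of all probes passing, 10.3% lower and 8.06% higher. The median was 0.21 over the members and -0.06 over all probes. None of the 4 calls held with normexp background correction, where limma gave 3 of the 13 an unadjusted p under 0.05. The log2 differences were then 1.77 for Calb1 (adjusted p = 0.167), -1.08 for S100g (adjusted p = 0.432), 0.38 for the upstream Slc8a1 probe (adjusted p = 0.751) and -0.17 for the upstream Trpv5 probe (adjusted p = 0.851). In IRI day 7 against IRI day 3, 12 of the 13 were higher, none was lower and the Trpv5 downstream probe did not pass, against 30.7% of all probes passing, 17.1% higher and 13.6% lower. The median of that comparison was 1.56 over the members and 0.03 over all probes, and in 11 of them the 2 groups did not overlap, against 17.8% of all probes not overlapping in that direction.

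**Figure D1:**
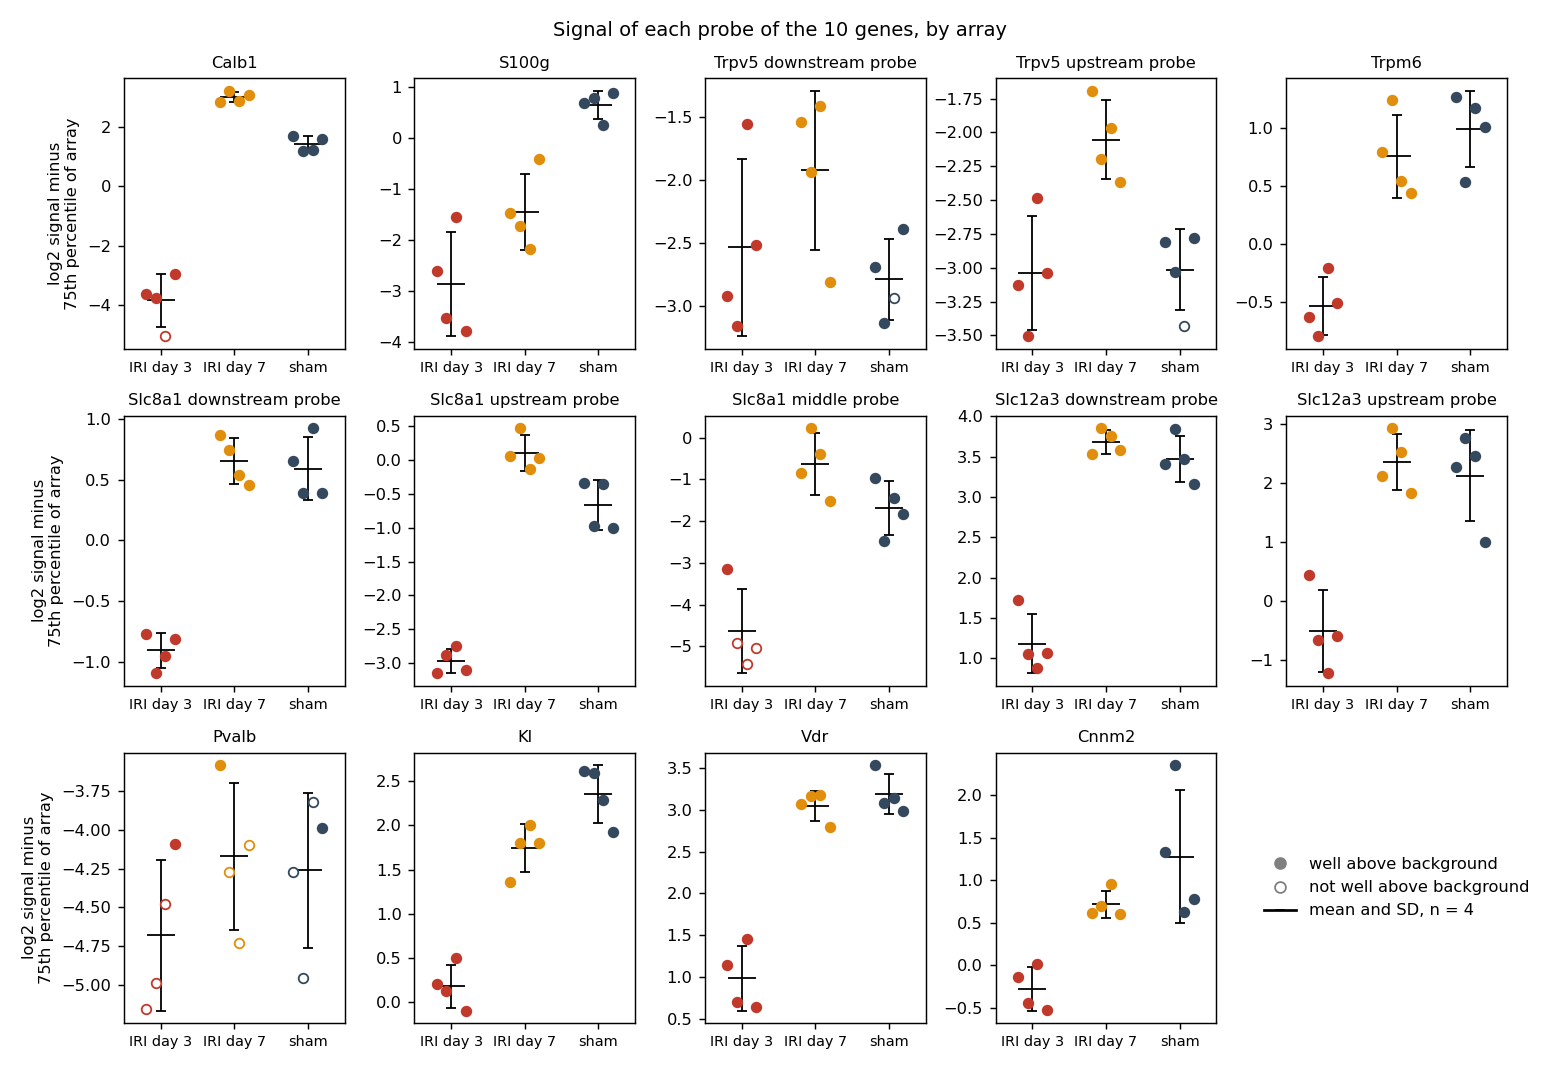
Level of each probe on each array (vertical axes: log2 signal minus the 75th percentile of its array, each panel with its own range) at IRI day 3, IRI day 7 and in sham, with the mean and SD of 4 arrays; open points were not well above background. In 11 panels all IRI day 3 arrays lie below all sham arrays, the exceptions being both Trpv5 probes and Pvalb.

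The largest falls of the members at IRI day 3 were in the calcium-binding proteins Calb1 and S100g. Calb1 encodes calbindin-D28k, which buffers and carries calcium through distal tubule cells. Its level was -3.63, -3.76, -5.06 and -2.95 in IRI day 3 replicates 1 to 4, 2.86, 3.22, 2.86 and 3.09 in IRI day 7 replicates 1 to 4, and 1.71, 1.19, 1.24 and 1.59 in sham replicates 1 to 4. The 3 groups did not overlap, with IRI day 3 lowest and IRI day 7 highest. The spread of the IRI day 3 arrays was 0.88 (SD), against 0.18 at IRI day 7 and 0.26 in sham, and replicate 3 at IRI day 3 was not well above background.

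Calb1 was 38.9-fold lower at IRI day 3 than in sham (log2 fold change -5.28 ± 0.35 SE, limma adjusted p = 2.38e-06). This was the 17th lowest change of the 21057 tested probes. It was 2.99-fold higher at IRI day 7 than in sham (1.58 ± 0.35, adjusted p = 0.0105) and 116-fold higher than at IRI day 3 (6.86 ± 0.35), the highest of all 21057 changes between those groups. The sizes depend on the background correction. With normexp correction Calb1 was at -2.80 at IRI day 3 against sham and at 4.56 at IRI day 7 against IRI day 3. With spots below their local background also left out these were -3.76 and 5.29. The pattern was also there before scaling. The raw intensities were 59.1, 52.8, 20.0 and 96.2 at IRI day 3, 3878, 4595, 4089 and 3593 at IRI day 7 and 1138, 792, 530 and 1185 in sham.

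S100g encodes calbindin-D9k, the smaller calcium carrier, best known from the intestine and also made in the distal nephron of rodents. Its level was -2.60, -3.53, -1.55 and -3.78 at IRI day 3, -1.47, -1.72, -2.16 and -0.42 at IRI day 7 and 0.69, 0.77, 0.25 and 0.87 in sham. All sham arrays lay above all injured ones, while the arrays of IRI day 3 and day 7 overlapped. S100g was 11.4-fold lower at IRI day 3 (-3.51 ± 0.47, adjusted p = 9.04e-05) and still 4.26-fold lower at IRI day 7 (-2.09 ± 0.47, adjusted p = 0.0113).

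S100g was higher at IRI day 7 than at IRI day 3 (1.42 ± 0.47, adjusted p = 0.0382). It was -0.17 on slide 1, 1.02 on slide 2 and 2.58 on slide 3, and with the slide as a block the adjusted p was 0.0648. Without 1 array the adjusted p lay above 0.05 for IRI day 3 replicates 1, 2 and 4 and for IRI day 7 replicates 1, 2 and 4. Of the intestinal markers Vil1, Cdx2 and Fabp2, 1 was tested and it did not pass (Vil1, 0.54 at IRI day 3 and 0.19 at IRI day 7). Cdx2 and Fabp2 were not bright enough to be tested. The log2 sum of the 3 ran from 1.07 to 1.54 at IRI day 3 and from 0.66 to 1.22 at IRI day 7, against 0.52 to 1.51 in sham. This sum was nearly all Vil1, which alone ran from 0.40 to 1.43 in sham and was well above background on all 4 sham arrays. A part of intestine in the S100g values was not tested.

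The 2 calbindins were also compared with each other. Calb1 minus S100g differed by 3.67 between IRI day 7 and sham, and the arrays did not overlap. The two-sided exact permutation p was 0.0286, the smallest that 4 arrays against 4 allow. Over the 18 comparisons of probe pairs made it was 0.0857 after Benjamini-Hochberg adjustment, so it did not pass. A pass depends on how many other comparisons also reach the smallest p, so the miss does not show that the calbindins changed alike. At IRI day 3 the difference was -1.77 (exact p = 0.0857).

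Pvalb encodes parvalbumin, a calcium buffer of fast muscle and, in the mouse, of the early distal convoluted tubule. Its probe was well above background on 1 array of each group, namely IRI day 3 replicate 4, IRI day 7 replicate 1 and sham replicate 4. The levels ran from -5.16 to -4.09 at IRI day 3 and from -4.73 to -3.58 at IRI day 7, against -4.96 to -3.82 in sham. The groups overlapped throughout, and the signal was too dim for a test. Of 6 skeletal muscle markers 2 were tested: Acta1, muscle actin, was higher at both times (0.65 at IRI day 3, adjusted p = 0.00494, and 0.52 at IRI day 7, adjusted p = 0.0452), while Mylpf did not pass (0.43 and 0.92). Ckm, Myh4, Tnnt3 and Atp2a1 were too dim to be tested. The log2 sum of the 6 markers ran from 0.54 to 1.01 at IRI day 3 and from 0.50 to 1.14 at IRI day 7, against 0.05 to 0.45 in sham.

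**Figure D2:**
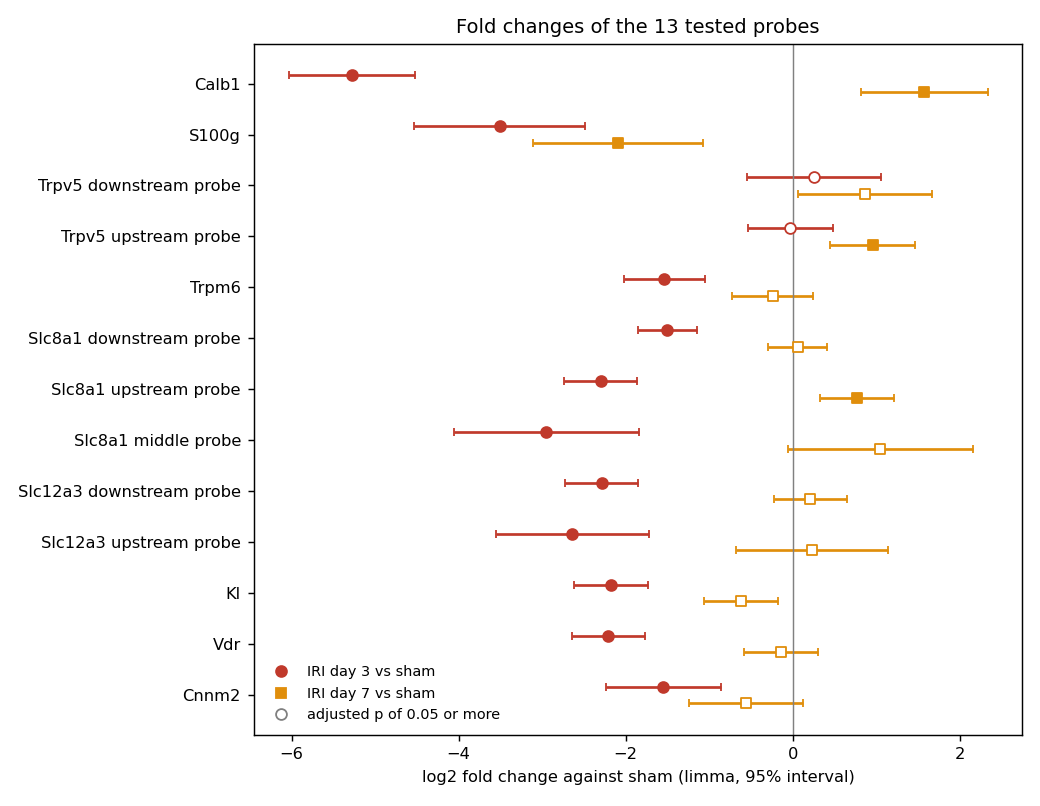
Log2 fold change of each tested probe with its 95% interval (horizontal axis) for IRI day 3 against sham (circles) and IRI day 7 against sham (squares); open symbols did not pass an adjusted p of 0.05. The IRI day 3 values lie between -5.28 and -1.50 except for Trpv5, and the IRI day 7 values lie between -0.61 and 1.58 except for S100g at -2.09.

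The entry channels gave different patterns. Trpv5 encodes the channel of the luminal membrane through which calcium enters. Its upstream probe had levels of -3.13, -3.51, -2.49 and -3.04 at IRI day 3, -1.69, -2.20, -1.97 and -2.36 at IRI day 7 and -2.81, -3.03, -3.43 and -2.78 in sham. IRI day 7 lay above both other groups without overlap, and IRI day 3 and sham overlapped.

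The Trpv5 upstream probe did not differ detectably at IRI day 3 (-0.03 ± 0.23, adjusted p = 0.934, 95% interval from -0.54 to 0.49). With normexp background correction it was at -0.79 there (adjusted p = 0.250), and with spots below their local background also left out it was lower and passed (-0.47, limma adjusted p = 0.00932). It was 1.94-fold higher at IRI day 7 than in sham (0.96 ± 0.23, adjusted p = 0.0166) and higher than at IRI day 3 (0.99 ± 0.23, adjusted p = 0.0105). The call against sham ended without IRI day 7 replicate 1 (adjusted p = 0.0511). It also ended with normexp background correction, which gave -0.17, or 0.25 with spots below their local background left out.

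The downstream probe of Trpv5 did not pass in any comparison. Its levels were -2.92, -3.16, -1.56 and -2.52 at IRI day 3, -1.54, -1.94, -1.41 and -2.81 at IRI day 7 and -2.69, -3.14, -2.94 and -2.39 in sham, and all 3 groups overlapped. The differences from sham were 0.25 ± 0.37 at IRI day 3 (adjusted p = 0.581) and 0.86 ± 0.37 at IRI day 7 (adjusted p = 0.122). Without IRI day 7 replicate 4 the second was 1.16 and passed (adjusted p = 0.0406). Both Trpv5 probes were dim, and sham replicate 3 was not well above background on either. The upstream minus downstream difference did not change detectably between groups (exact permutation p from 0.229 to 0.743).

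Trpm6 encodes the magnesium channel of the luminal membrane. Its level was -0.64, -0.80, -0.20 and -0.51 at IRI day 3, 0.80, 1.25, 0.55 and 0.44 at IRI day 7 and 1.27, 0.53, 1.18 and 1.01 in sham. IRI day 3 lay below both other groups, which overlapped. Trpm6 was 2.90-fold lower at IRI day 3 (-1.54 ± 0.22, adjusted p = 0.000147). IRI day 7 gave -0.24 ± 0.22 against sham (adjusted p = 0.482) and 1.29 ± 0.22 against IRI day 3 (adjusted p = 0.00225).

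On the blood side, Slc8a1 encodes the sodium-calcium exchanger NCX1, which is also abundant in heart and other muscle. Its upstream probe had levels of -3.14, -2.88, -2.75 and -3.09 at IRI day 3, 0.05, 0.47, -0.14 and 0.02 at IRI day 7 and -0.34, -0.97, -0.36 and -1.0 in sham. The 3 groups did not overlap, in the same order as for Calb1. The log2 fold changes were -2.30 ± 0.20 at IRI day 3 (adjusted p = 8.83e-06) and 0.77 ± 0.20 at IRI day 7 (adjusted p = 0.0229), both against sham.

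The downstream probe of Slc8a1 had levels of -0.77, -1.10, -0.95 and -0.81 at IRI day 3, 0.87, 0.75, 0.54 and 0.46 at IRI day 7 and 0.66, 0.39, 0.93 and 0.39 in sham. IRI day 3 was again lowest, but here IRI day 7 and sham overlapped. The values were -1.50 ± 0.16 at IRI day 3 (adjusted p = 2.74e-05) and 0.06 ± 0.16 at IRI day 7 (adjusted p = 0.828). The middle probe, printed on 10 spots of each array, had levels of -3.15, -4.93, -5.42 and -5.05 at IRI day 3, -0.85, 0.23, -0.40 and -1.52 at IRI day 7 and -0.97, -2.49, -1.45 and -1.84 in sham. Its level at IRI day 3 was well above background on 1 of 4 arrays, replicate 1, so its -2.95 ± 0.51 (adjusted p = 0.000496) rests on dim spots. It was -1.65 with normexp correction (adjusted p = 0.0548). The middle probe was at 1.05 ± 0.51 at IRI day 7 against sham (adjusted p = 0.171).

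The upstream and downstream probes of Slc8a1 were compared with each other. Upstream minus downstream was -2.06 ± 0.31 at IRI day 3 and -0.55 ± 0.25 at IRI day 7, against -1.26 ± 0.18 in sham (SD, n = 4 each). In this difference no group overlapped another. Relative to sham it moved by -0.80 at IRI day 3 and by 0.71 at IRI day 7. Each had a two-sided exact permutation p of 0.0286 and an adjusted p of 0.0857 over the 18 comparisons, so neither passed after adjustment. The call of the upstream probe at IRI day 7 ended in the fit of those 2 groups alone (adjusted p = 0.0620), without sham replicates 2 or 4 (0.0556 and 0.0504) and without IRI day 7 replicate 2 (0.0561).

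**Figure D3:**
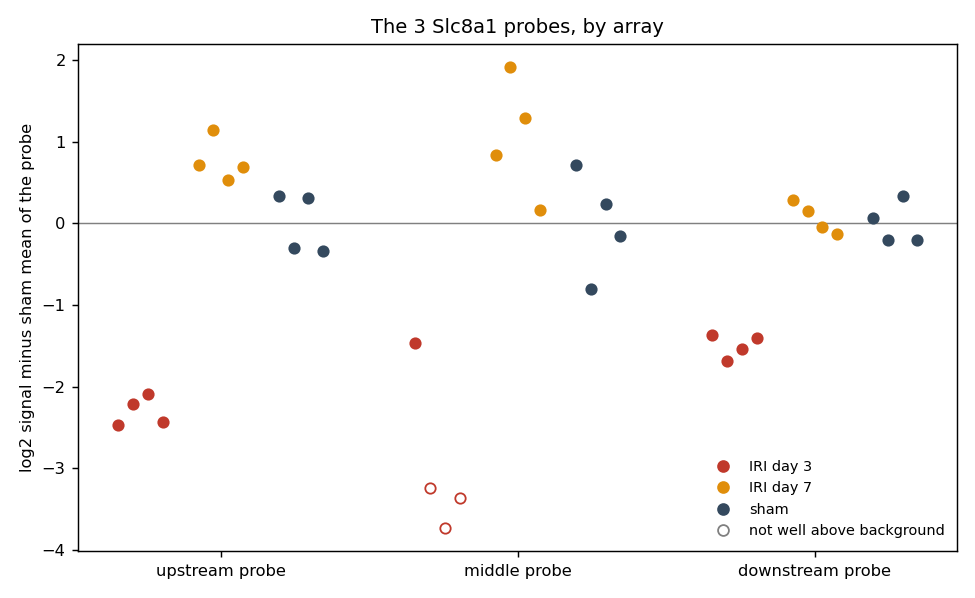
Level of each Slc8a1 probe on each array minus the sham mean of that probe (vertical axis, log2) at IRI day 3, IRI day 7 and in sham; open points were not well above background. The IRI day 3 arrays lie lower on the upstream and middle probes than on the downstream probe, with means of -2.30, -2.95 and -1.50.

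Of 4 smooth muscle and pericyte markers 3 were tested. At IRI day 3 Tagln (3.38, adjusted p = 4.4e-05) and Acta2 (0.63, adjusted p = 0.0301) were higher and Myh11 (-0.90, adjusted p = 0.0303) was lower. Myh11 was also lower at IRI day 7 (-1.17, adjusted p = 0.0266), where the others did not pass. Cnn1 was too dim to be tested. The log2 sum of the list ran from 1.55 to 2.28 at IRI day 3 and from 0.03 to 0.84 at IRI day 7, against 0.72 to 1.18 in sham. Their part in the Slc8a1 values was not tested. Neither cardiac muscle marker, Myh6 or Tnni3, was bright enough to be tested.

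Cnnm2 encodes a membrane protein of the blood side of the distal convoluted tubule that is needed to keep magnesium in the body. Its level was -0.13, -0.45, 0.01 and -0.53 at IRI day 3, 0.61, 0.69, 0.95 and 0.61 at IRI day 7 and 1.33, 2.35, 0.62 and 0.78 in sham. IRI day 3 lay below both other groups, and sham had the widest spread, 0.78 (SD) against 0.16 at IRI day 7. Cnnm2 was 2.92-fold lower at IRI day 3 (-1.55 ± 0.31, adjusted p = 0.00146). Its -0.56 ± 0.31 at IRI day 7 against sham did not pass (adjusted p = 0.239). The rise against IRI day 3 passed narrowly (0.99 ± 0.31, adjusted p = 0.0336), and its adjusted p was between 0.0560 and 0.0908 without IRI day 3 replicates 1, 2 or 4 or without any one of the IRI day 7 replicates.

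Slc12a3 encodes NCC, the cotransporter that defines the distal convoluted tubule. Its downstream probe had levels of 1.72, 1.05, 0.88 and 1.07 at IRI day 3, 3.53, 3.86, 3.76 and 3.58 at IRI day 7 and 3.41, 3.84, 3.46 and 3.16 in sham. The upstream probe had 0.44, -0.67, -1.23 and -0.59 at IRI day 3, 2.13, 2.94, 2.53 and 1.83 at IRI day 7 and 2.27, 2.76, 2.47 and 1.01 in sham. On both, IRI day 3 lay below both other groups, which overlapped.

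Slc12a3 was 4.89-fold lower at IRI day 3 by the downstream probe (-2.29 ± 0.20, adjusted p = 9.06e-06) and 6.22-fold lower by the upstream one (-2.64 ± 0.42, adjusted p = 0.000286). At IRI day 7 the values against sham were 0.21 ± 0.20 (adjusted p = 0.499) and 0.23 ± 0.42 (adjusted p = 0.746). The probes did not differ from each other detectably in their changes (exact permutation p from 0.229 to 0.971). Of the genes that mark the distal tubule, Slc12a3, Calb1 and Trpm6 were well above background on all 4 sham arrays, whereas Pvalb was on 1.

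Among the control genes, Kl had levels of 0.20, 0.12, 0.50 and -0.09 at IRI day 3, 1.36, 1.81, 2.0 and 1.80 at IRI day 7 and 2.62, 2.60, 2.29 and 1.92 in sham. IRI day 3 was lowest without overlap, and 3 of the 4 sham arrays lay above all IRI day 7 arrays. Kl was 4.51-fold lower at IRI day 3 (-2.17 ± 0.20, adjusted p = 1.18e-05). It was at -0.61 ± 0.20 at IRI day 7 against sham and missed the threshold (adjusted p = 0.0546). Without sham replicate 4 the value was -0.76 and passed (adjusted p = 0.0235). With normexp background correction it was -0.09 (limma adjusted p = 0.840), and with spots below their local background also left out -0.52 (adjusted p = 0.0616).

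Vdr, the vitamin D receptor, had levels of 1.14, 0.70, 1.45 and 0.64 at IRI day 3, 3.08, 3.16, 3.17 and 2.79 at IRI day 7 and 3.54, 3.09, 3.15 and 2.98 in sham. IRI day 3 lay below the other groups, which overlapped. Vdr was 4.62-fold lower at IRI day 3 (-2.21 ± 0.20, adjusted p = 1.09e-05), with -0.14 ± 0.20 at IRI day 7 against sham (adjusted p = 0.683) and 2.07 ± 0.20 against IRI day 3 (adjusted p = 0.000124).

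The share of the IRI day 3 fall, on the log2 scale, that was regained at IRI day 7 is given for each of the 11 probes lower at IRI day 3. It was 40.4% for S100g, 64.0% for Cnnm2, 71.7% for Kl, 84.3% for Trpm6 and 93.8% for Vdr. It was 104% for the downstream Slc8a1 probe, 109% for both Slc12a3 probes, 129.9% for Calb1 and 133% for the upstream Slc8a1 probe. The middle Slc8a1 probe, dim at IRI day 3, gave 136%. Without sham replicate 2, the highest Cnnm2 value, it was 83.4% for Cnnm2 and 76.6% for Trpm6. Without any 1 array it ran from 56.1% to 83.4% for Cnnm2, from 73.7% to 91.3% for Trpm6, from 67.2% to 77.6% for Kl and from 30.7% to 47.2% for S100g, so the order of Cnnm2, Kl and Trpm6 was not fixed. These shares are a description, since they use both comparisons with the same sham arrays. They also depend on the scaling. Without any scaling the IRI day 7 minus sham difference was 0.02 for Kl, 0.08 for Cnnm2, 0.39 for Trpm6 and 0.50 for Vdr. For S100g it was -1.46. Among the 11 probes lower at IRI day 3, replicate 3 of IRI day 3 was the highest of its group in 6 and the lowest in 4.

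How the falls read depends on the scaling of the arrays. Without any scaling the IRI day 3 minus sham difference was -4.13 for Calb1, -2.36 for S100g, -1.06 for Vdr, -1.02 for Kl, -0.39 for Trpm6, -0.40 for Cnnm2 and -0.35 for the downstream Slc8a1 probe, all still below 0. It was 1.12 for the upstream and 1.40 for the downstream Trpv5 probe. Before scaling, the IRI day 3 and sham arrays overlapped for Trpm6, Cnnm2, the downstream and middle Slc8a1 probes and the upstream Slc12a3 probe. No source used here gives the mass of RNA labelled, so a change in total RNA cannot be separated from a change in labelling. Scaled to total signal, 59.8% of the IRI day 3 calls over all probes were higher, against 43.4%, with the median of all probes at 0.17 in place of -0.11. For IRI day 7 the same scaling gave 78.2% higher, against 43.9%, with a median of 0.17 in place of -0.06, and the authors' deposited table gave 55.9%. The counts of the members' probes were 11 lower at IRI day 3 and 1 lower with 3 higher at IRI day 7 under both. Normexp correction brought Calb1 at IRI day 3 to -2.80 and S100g to -2.01, and the downstream Slc8a1 probe to -0.97, all still passing.

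All 11 probes called at IRI day 3 and all 4 called at IRI day 7 against sham had 1 direction on each of the 3 slides. Of the 12 called between IRI day 7 and IRI day 3, 11 did, the exception being S100g. In all these calls but that exception the arrays of the compared groups did not overlap. Without overlap 1 direction on each slide is fixed in advance, so these counts are no separate check on the slides.

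Markers of the other tubule segments moved at the same time. Over all probes 32.0% were lower and 24.5% higher at IRI day 3. At IRI day 3, 4 of 4 thick ascending limb markers, 5 of 5 of collecting duct principal cells, 5 of 5 of intercalated cells and 4 of 5 of the proximal tubule were lower and none was higher. At IRI day 7 Kcnj1 of the thick ascending limb was higher (0.83, limma adjusted p = 0.0251) and none of that list was lower. At an unadjusted limma p under 0.05, 3 of its 4 were lower. No principal cell marker passed, though 3 of 5 were higher at that unadjusted p. Among intercalated and proximal tubule markers 1 of each list was lower and none was higher, against 10.3% and 8.06% of all probes. The sums mostly follow the brightest probes of each list. The log2 sum of the thick ascending limb list (Umod, Slc12a1, Kcnj1 and Cldn16) ran from 1.31 to 2.84 at IRI day 3 and from 4.70 to 5.23 at IRI day 7, against 5.66 to 6.05 in sham. The principal cell list ran from 1.99 to 2.88 at IRI day 3 and from 4.53 to 5.05 at IRI day 7, against 3.57 to 4.52 in sham. For intercalated cells the ranges were 1.21 to 2.0 at IRI day 3 and 3.57 to 3.92 at IRI day 7, against 3.30 to 4.23 in sham. For the proximal tubule they were 4.58 to 6.18 at IRI day 3 and 6.49 to 7.45 at IRI day 7, against 7.81 to 7.90 in sham.

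Markers of cells outside the tubule went both ways. Over all probes 32.0% were lower and 24.5% higher at IRI day 3, and 10.3% and 8.06% at IRI day 7. Of 4 podocyte markers 3 were lower at IRI day 3 and 2 at IRI day 7, and of 4 endothelial markers 2 were lower at each time. Of 3 tested macrophage markers 2 were higher at IRI day 3 and 1 at IRI day 7, with a log2 sum from 1.38 to 1.97 at IRI day 3 and from 0.77 to 1.57 at IRI day 7, against -0.37 to 0.11 in sham. Cd163 was too dim to be tested. All 3 fibroblast markers were higher at both times, with a log2 sum from 4.91 to 5.78 at IRI day 3 and from 4.66 to 5.06 at IRI day 7, against 2.81 to 3.72 in sham. Of 4 adrenal markers 1 of 2 tested was lower at IRI day 3 (Cyp21a1, -1.31), with a log2 sum from -2.23 to -1.76 at IRI day 3 and from -1.37 to -1.03 at IRI day 7, against -1.06 to -0.45 in sham. The part of cell composition in the members' values was not tested.

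Most partners of the cotransporter in the distal convoluted tubule were lower at IRI day 3. By the brightest probe of each gene, 11 of 13 tested were lower and none was higher, with a median of -1.56. The shares over all probes were 32.0% lower and 24.5% higher. Ppp1r1a, a phosphatase inhibitor of the distal tubule, was at -4.69, and the potassium channel gene Kcnj10 was at -4.33. Bsnd was at -2.08 and the kinase gene Wnk1, which acts upstream of NCC, at -2.07. Oxsr1 and Nedd4l did not pass by their brightest probes, but the other Oxsr1 probe was higher (1.54, adjusted p = 0.00174). At IRI day 7, 1 of the 13 was lower, the channel gene Kcnj16 (-0.97, adjusted p = 0.00398), and 1 was higher, Hsd11b2, which protects the mineralocorticoid receptor from glucocorticoids (1.30, adjusted p = 0.00233). The shares over all probes at IRI day 7 were 10.3% lower and 8.06% higher. Klhl3 had no probe by that name.

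Of the other genes of calcium transport 12 were tested. At IRI day 3, 3 were lower and 4 higher, against 32.0% of all probes lower and 24.5% higher, and their median was 0.33. The calcium pump gene Atp2b1 was at -0.03 ± 0.17 (adjusted p = 0.898), while Atp2b4 was at -1.59, Atp2b3 at -0.81 and the exchanger gene Slc8a2 at -1.83, all 3 lower. Anxa2 (4.12) and S100a10 (2.14), whose products together bind TRPV5 and TRPV6 and bring them to the membrane, were higher. At IRI day 7, 1 was lower, Slc8a2 (-1.30), and 4 were higher, against 10.3% and 8.06% of all probes. The median was 0.35. Trpv6, the other epithelial calcium channel, was among the 4 (1.64 ± 0.40, adjusted p = 0.0159), with levels of -2.67 ± 0.66 at IRI day 7 and -4.31 ± 0.56 in sham (SD, n = 4 each), where 1 of 4 arrays was well above background.

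In the magnesium list 5 of 15 tested were lower and 5 higher at IRI day 3, against the same 32.0% and 24.5% of all probes, with a median of -0.0040. Egf, whose product raises TRPM6 activity, was lower at IRI day 3 (-5.65 ± 0.36, adjusted p = 2.25e-06) and at IRI day 7 (-2.02 ± 0.36, adjusted p = 0.0037). Pcbd1 was at -1.39 and -0.62 at these times, both lower. Fxyd2, a subunit of the sodium pump, was lower at IRI day 3 (-1.23) and at -0.28 at IRI day 7. The magnesium transporter genes Nipa2 (1.62) and Nipa1 (1.47) were higher at IRI day 3. Egf and Pcbd1 were the 2 that were lower at IRI day 7, and none was higher, against 10.3% and 8.06% of all probes.

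In the list of the vitamin D, PTH and FGF23 axis 10 of 14 tested were lower and 1 higher at IRI day 3. The shares over all probes were 32.0% and 24.5%, and the median of the list was -0.87. The 1 that was higher was Cyp24a1, the enzyme that breaks down active vitamin D (1.70 ± 0.52, adjusted p = 0.0147), and its other probe gave 3.41 (adjusted p = 0.0164). Cyp27b1, the enzyme that makes active vitamin D, was at -0.75 ± 0.33 (adjusted p = 0.0733). The phosphate transporter genes Slc34a1 (-3.83) and Slc34a3 (-2.60), the calcium-sensing receptor gene Casr (-2.43) and the PTH receptor gene Pth1r (-0.92) were lower. None of the 14 passed at IRI day 7 in the limma fit, though 4 were lower at an unadjusted p under 0.05. Over all probes 18.4% passed at that time. Cyp24a1 was then at -0.14, Casr at -0.75 and Pth1r at -0.18. Of 4 tested claudins of the paracellular cation path, Cldn16 was lower (-2.09) and Cldn3 higher (1.22) at IRI day 3, and Cldn3 was higher at IRI day 7 (0.90, adjusted p = 0.0386).

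**Figure D4:**
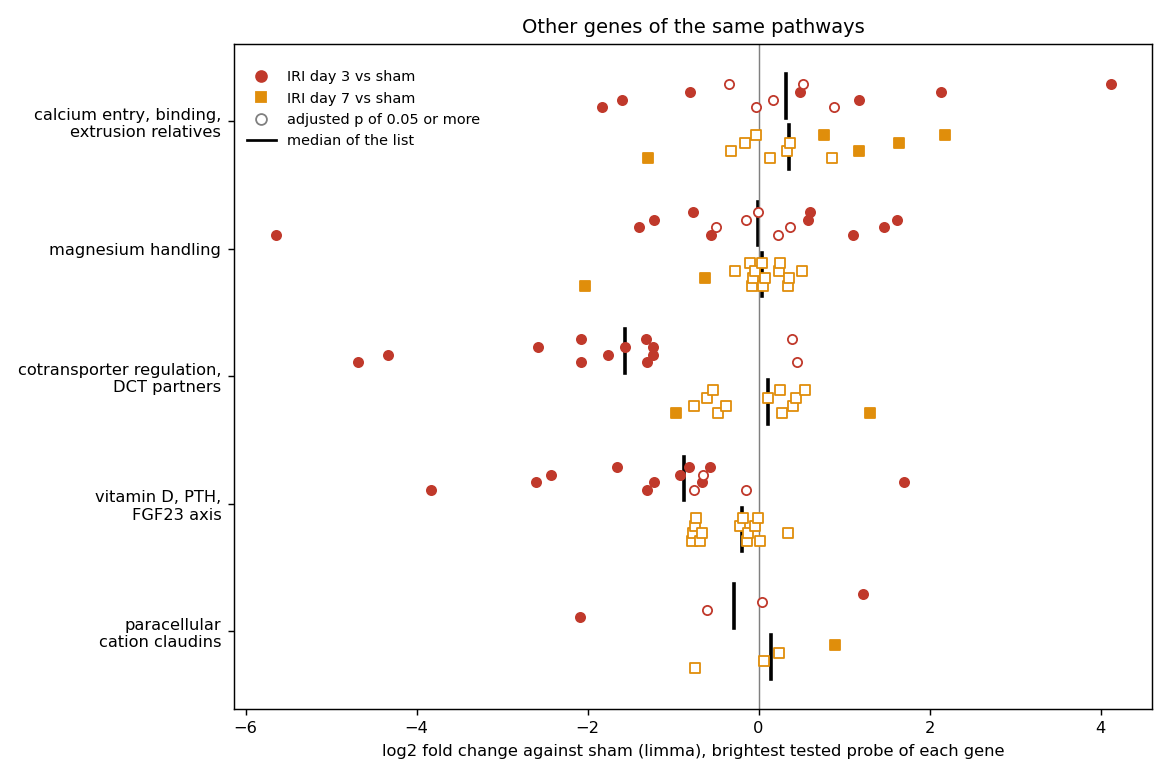
Log2 fold change against sham (horizontal axis) of the tested genes of 5 lists, by the brightest probe of each, at IRI day 3 (circles) and IRI day 7 (squares), with the median of each list as a black bar; open symbols did not pass an adjusted p of 0.05. At IRI day 3 the cotransporter list has its median at -1.56 and the calcium list at 0.33.

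For the brightest probe of each member, the named probes most like it over the 12 arrays were found by Pearson correlation among 14792. The arrays fall into the 3 groups, so these values mostly follow the group means. Calb1 was most like a probe of the potassium channel gene Kcnj1 (r = 0.987), which was at -2.24 at IRI day 3 and 0.67 at IRI day 7, and Rhcg, an ammonia channel gene (0.978). S100g was most like Azgp1 (0.988), at -6.19 and -3.50 at these times, and Eci3 (0.987), at -2.34 and -1.31. The downstream Slc8a1 probe was most like Rhcg (0.984) and Kcnq1 (0.983), and Slc12a3 most like Tmem52b and Tmem72 (0.984 each). Kl was most like Nr1h4 (0.986) and Dgkg (0.982), Vdr most like Car12 (0.980) and Fam81a (0.978), and Trpm6 most like Cd300lg (0.975) and Bdkrb2 (0.963). Cnnm2 was most like Lin28a (0.949) and Esrrg (0.948). Trpv5, by its downstream probe, had the lowest of these values, with Fchsd1 at 0.870 and Iqub at 0.856.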

How the data were processed

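The scanner files hold a processed signal and a mean signal with its local background per spot, all intensities, and flags of 0 or 1 (other values) for spots above background, saturated or outlying, per the file headers. The headers name Agilent Feature Extraction 9.5.1.1 and build rn4. No normalization between arrays had been done. The authors' deposited value table holds log2 values. Set against the scanner files (lowest r 0.998) they turned out to be scaled to the 75th percentile and centred on each probe, with column medians from -0.21 to 0.30, so no level is known from them.

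Log2 processed signals minus the 75th percentile of the array were used, without control and outlier spots, averaged per probe. A probe was tested where all 4 arrays of some group showed it well above background. limma 3.58.1 (R 4.3.3) was fitted to 12 arrays with two-sided tests and Benjamini-Hochberg adjustment over all 21057 probes at 0.05. The steps were tested on simulated data. Probe pairs were compared by exact permutation. No source used here says that the samples came from separate rats, so p-values measure only the spread between these samples. For lists of other genes the brightest tested probe stood for a gene. The named ones are at most 5 per list with the largest change at day 3, those against the majority of their list, and Trpv6, Atp2b1, Cyp27b1, Cyp24a1, Pth1r, Casr and Egf. Members and lists were chosen with earlier results of these data known. Same-numbered arrays did not pair across groups, by the check given in the closing section. Alternatives were other background, scaling and filter settings, slide, scan batch and replicate blocks, fits of 2 groups and leaving out each array. Some results on single genes of these lists are not reported here.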

Additional observations from a re-analysis of the deposited data

Results flagged for a closer look

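The change at IRI day 7 differed from the change at IRI day 3, by the limma test of the difference itself, in 12 of the 13 probes tested. As log2 of IRI day 7 over IRI day 3 the difference was 6.86 for Calb1, 4.00, 3.07 and 1.56 for the middle, upstream and downstream Slc8a1 probes, 2.87 and 2.50 for the upstream and downstream Slc12a3 probes, 2.07 for Vdr, 1.56 for Kl, 1.42 for S100g, 1.29 for Trpm6, 0.99 for Cnnm2 and 0.99 for the upstream Trpv5 probe. In S100g the arrays of the 2 times overlapped, and in the other 11 they did not. No member had an array far enough from the other 3 of its group to pass Dixon's 95% criterion.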

How the results depend on the processing

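Over the alternatives, the members' values kept their direction and their side of the threshold in 852 cases, lost a call in 35, gained one in 5 and reversed in 20. None of the 11 falls at IRI day 3 reversed. With normexp correction all probes gave 3437, 92 and 176 calls for IRI day 3 against sham, IRI day 7 against sham and IRI day 7 against IRI day 3, against 11893, 3866 and 6473. The members' probes gave 10, 0 and 7, against 11, 4 and 12. The cause was not tested, but without spots below local background the correction gave 13368, 3905 and 8766 calls. With the brightest probe per gene, 8 of the 9 member genes tested were lower at IRI day 3. The same setting gave 2 member calls at IRI day 7, with fewer probes tested. The fit of those 2 groups alone gave 2284. Leaving out 1 array gave 10394 to 11960, 2291 to 3837 and 3829 to 7393 calls over all probes, and 11, 3 to 5 and 10 to 12 over the members. The lowest were 2291 without IRI day 7 replicate 3 and 3829 without IRI day 3 replicate 4, and 2428 (without IRI day 7 replicate 1), 4031 and 4225 (without IRI day 3 replicate 2 and IRI day 7 replicate 4) were also lower by over 1.5 times.

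Reversals were in values that had not passed, apart from the upstream Trpv5 probe at IRI day 7 (0.96, and -0.17 with normexp). The upstream Trpv5 probe at IRI day 3 (-0.03) was at 0.12 with quantile normalization, 0.25 with total signal scaling, 0.071 in the authors' table, 0.031 with slide and 0.058 with scan batch as a block, and from -0.21 to 0.13 without 1 array. It was at -0.79 with normexp and at -0.47 without spots below local background. There it passed (limma adjusted p = 0.00932) and 12 of the 13 tested probes of the members were lower. The downstream probe (0.25) was at -0.58 with normexp, -0.20 without spots below local background, and from -0.075 to 0.46 without 1 array, and at IRI day 7 (0.86) at -0.20 with normexp. Vdr at IRI day 7 (-0.14) was at 0.32 with normexp and 0.10 with total signal scaling. Without 1 array the downstream Slc8a1 probe at IRI day 7 ran from -0.010 to 0.17 and the upstream Slc12a3 probe from -0.14 to 0.44. The cause of these reversals was not tested.

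The replicate numbers did not pair the samples (correlations of deviations from -0.33 to 0.14 over 12 pairs, 6 of 24 best matches with the own number). With the replicate block all probes gave 11396, 2725 and 5184 calls and the members' probes 11, 3 and 10. The calls of the upstream Slc8a1 probe at IRI day 7 (0.77, adjusted p = 0.0505) and, for IRI day 7 against IRI day 3, of S100g (adjusted p = 0.0750) and Cnnm2 (adjusted p = 0.0522) were then lost. Without a filter on dim probes S100g (adjusted p = 0.0539) and Cnnm2 (0.0505) also missed the threshold there. Low signal limits Pvalb, both Trpv5 probes and, at IRI day 3, the middle Slc8a1 probe and the size of the Calb1 fall.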
